A study of Caenorhabditis elegans with 2 samples.

Results

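The 10 genes described here, lin-14, lin-28, hbl-1, lin-46, daf-12, lin-41, lin-29, lin-42, alg-1 and alg-2, belong to the heterochronic pathway of Caenorhabditis elegans. They were taken by name, and all 10 were found among 19973 annotated protein-coding genes. A deposited peak was assigned to a gene when its summit lay in the locus, which is the gene body plus the flanking intergenic sequence up to the nearest protein-coding gene on each side. The peaks came from ChIP-seq, sequencing of chromatin-immunoprecipitated DNA, of EGL-5, a posterior Hox homeodomain protein, carrying an eGFP tag. Whole L3 larvae of mixed sex and of strain OP54 were used, which carries unc-119(ed3) III and the array wgIs54 with tagged egl-5. The 2 biological replicates form 1 group, every larva carried the array, and a group without it was not analysed here. In whole larvae, binding in few cells and weak binding in many cells cannot be told apart.

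Heterochronic genes set which stage-specific cell fates the larva executes, most visibly in the seam cells of the epidermis and in vulval precursor cells. Early regulators such as LIN-14, LIN-28 and HBL-1 promote fates of young larvae and are turned down by the microRNA lin-4 and the let-7 family, which act through the Argonaute proteins ALG-1 and ALG-2. LIN-41 and LIN-29 act late, at the change from larva to adult, while DAF-12 and LIN-42 link the timing to hormone signals and to the molting cycle.

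After the authors' cut-off on the irreproducible discovery rate (IDR), the list held 2570 peaks on ce11. The rate compares peak ranks between replicates, but a listed peak need not rank alike in both. Of the listed peaks, 53.3% overlapped one of the 2570 highest-scoring peaks in each replicate. The scores of the listed peaks, on the peak caller's own scale, ran from 30.8 upwards. The listed peaks were the 2570 highest of the 28619 peaks called on both replicates together. The remaining pooled peaks, called weaker peaks here, can include background, and read depth is unknown for all lists. The targeted gene egl-5 had 16 IDR summits in its locus, including the highest score of the list, 509.8, in a strain with added egl-5 sequence. Replicate numbers follow the ce11 lists, and replicate 1 and 2 may be exchanged, because score distributions matched the opposite number in the ce10 lists. Scores of the 2 replicate lists differ in scale, with medians of 4.28 in replicate 1 and 7.03 in replicate 2, so only ranks can be compared between them.

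Of the 10 genes, 6 had an IDR summit in the locus: lin-14, hbl-1, lin-28, lin-42, daf-12 and alg-1. By the same rule 16.9% of all protein-coding genes had one. Long loci gather more summits, and the members' loci had a median of 21.2 kb against 4.78 kb for all genes. Among loci of 10 kb or more, a class defined after seeing the data, 32.2% had an IDR summit, and 5 of the 8 members with such a locus did. The 6 loci held 16 IDR summits in 14 separate regions, since a pair of peaks overlapped at lin-14 and another at hbl-1. The loci of lin-41, lin-29, lin-46 and alg-2 held only weaker peaks.

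**Figure D1:**
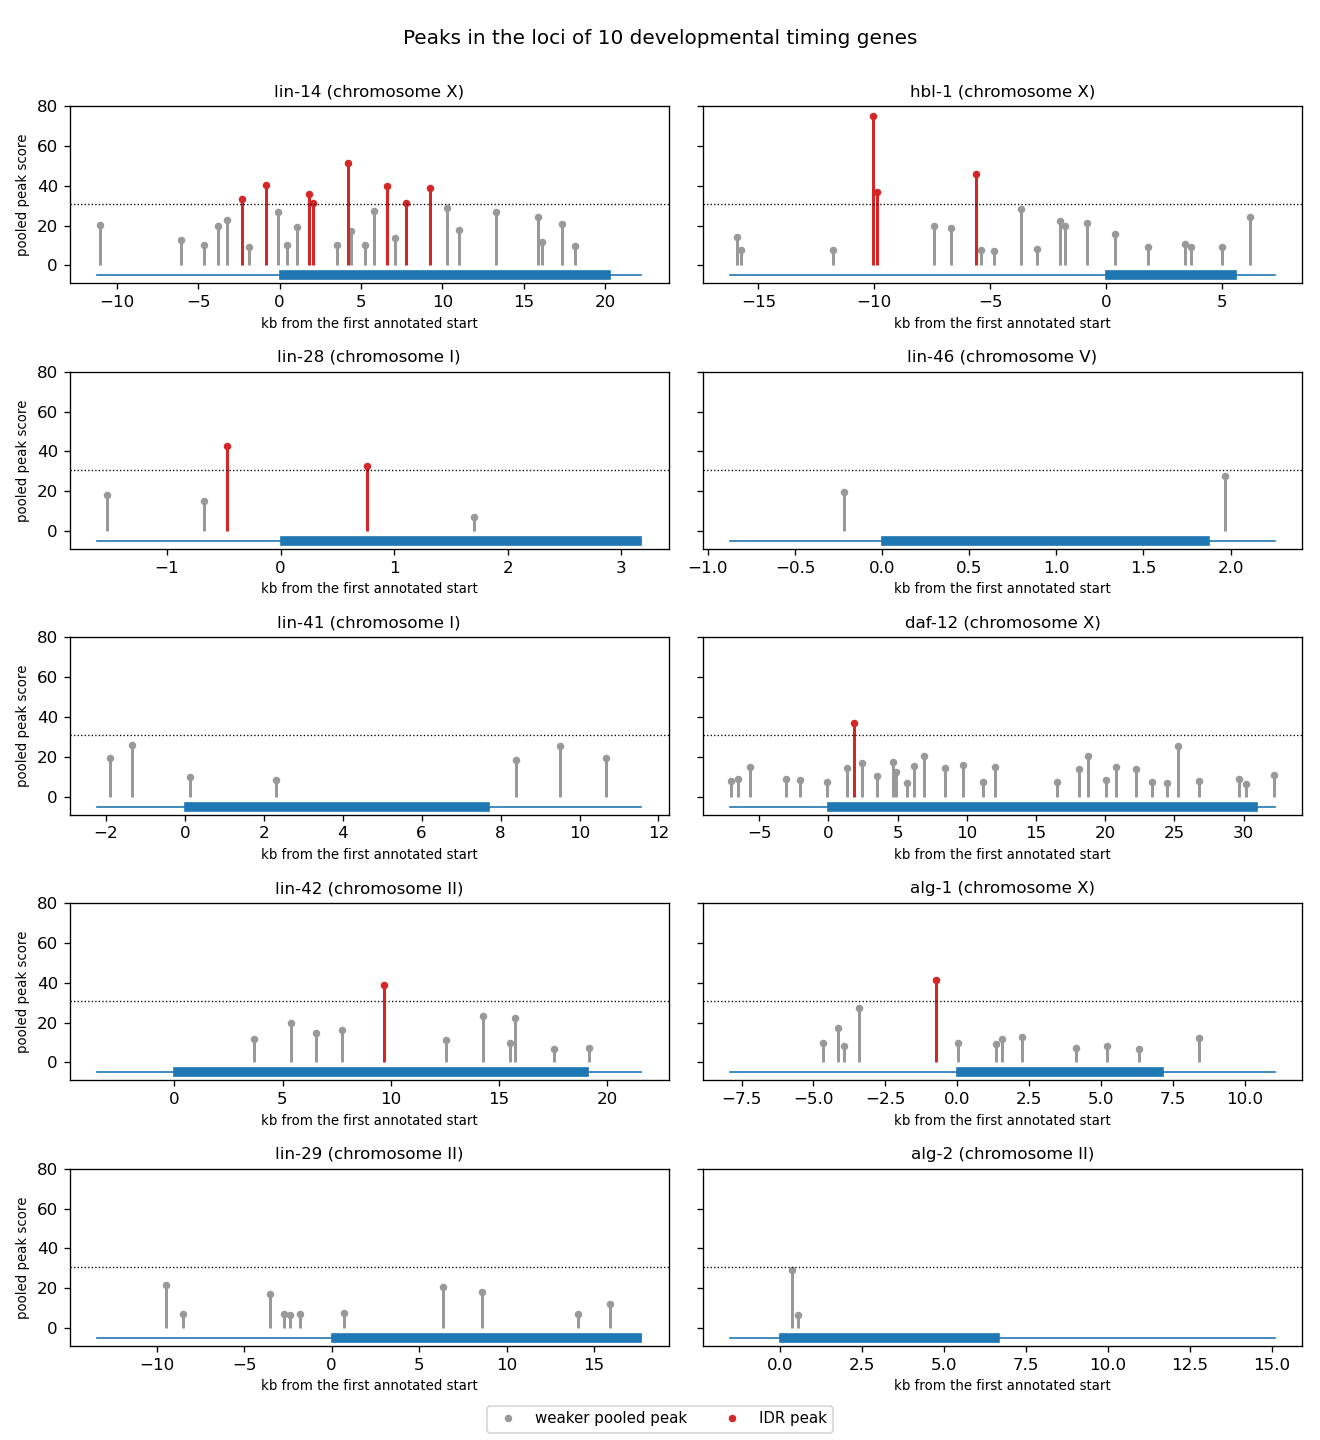
Score of every pooled peak (vertical axis, the authors' scale) by distance of its summit from the first annotated start of the gene (horizontal axis, kb, in the direction of transcription) for the 10 loci; red marks the 16 IDR peaks, grey the weaker peaks, the dotted line the lowest IDR score of 30.8, the blue bar the gene body and the thin line the locus. IDR peaks line the upstream sequence and first introns of lin-14, stand far upstream of hbl-1, and are missing from lin-41, lin-29, lin-46 and alg-2.

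The 4 members on the X chromosome, lin-14, hbl-1, daf-12 and alg-1, all had an IDR summit and together held 13 of the 16. Among all genes on X, 26.9% had an IDR summit in the locus, and 42.8% of those on X with a locus of 10 kb or more. Summits in the members' X loci numbered 1.13 per 10 kb, compared with 0.340 per 10 kb over X as a whole. Without lin-14 the value for the other X members was 0.611 per 10 kb. Of the 6 autosomal members 2 had an IDR summit, beside 15.3% of autosomal genes. Among autosomal loci of 10 kb or more, 29.1% had one. Of the autosomal members with such a locus, lin-42 had a summit, and lin-41, lin-29 and alg-2 did not. The 6 autosomal loci held 3 summits, or 0.317 per 10 kb, beside 0.238 per 10 kb over the autosomes. The difference from the chromosome as a whole thus rested mainly on lin-14.

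The gene lin-14 (WBGene00003003, X, 11465560 to 11485871, plus strand) encodes the nuclear factor that promotes the fates of the first larval stage, and its messenger RNA was the first known microRNA target. Its locus held 8 IDR summits and 21 weaker peaks in 33.5 kb. Only 7 loci of all protein-coding genes (0.0350%) held 8 or more IDR summits, and egl-5 itself and its neighbour cyk-7 were among them. All 7 were long, from 27.7 kb to 45.6 kb, beside a median of 4.78 kb for all genes. The 8 summits were strung over 11.5 kb, from -2302 bp to 9214 bp relative to the first annotated start, with gaps of 213 to 2636 bp.

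Upstream of lin-14, the peak at -2302 bp had a pooled score of 33.1, with 11.99 (rank 2903) in replicate 1 and 24.8 (rank 1475) in replicate 2. The peak at -825 bp scored 40.4, with 17.1 (rank 1385) in replicate 1 and 24.4 (rank 1537) in replicate 2. This was the only one of the 8 in a promoter window, defined as 1000 bp upstream to 200 bp downstream of an annotated start. Both upstream summits lay in sequence shared with the neighbour F48C5.2. In intron 1 of the long transcript, which has 12 exons, overlapping peaks at 1811 and 2024 bp scored 35.99 and 31.3. Both met the same peak in each replicate, with scores of 21.6 (rank 739) and 23.03 (rank 1753), so they count as a single region.

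Intron 3 of lin-14 carried the other 4 summits, among them the highest of the locus. That peak, at 11469591 to 11469954 and 4213 bp from the first start, had a pooled score of 51.2 and ranked 677 of the 2570. It scored 20.9 (rank 809) in replicate 1 and 26.6 (rank 1229) in replicate 2. The peaks at 6622, 7787 and 9214 bp scored 40.1, 31.2 and 38.6. Their replicate 1 scores were 16.0, 18.6 and 10.6 (ranks 1603, 1138 and 3643). Their replicate 2 scores were 25.03, 20.5 and 25.6 (ranks 1445, 2305 and 1357). All 4 lay between the 2 annotated starts of the gene, and those at 7787 and 9214 bp were nearer to the second start, at -7014 and -5587 bp from it. Of the 8 peaks, 6 overlapped one of the 2570 highest-scoring peaks in each replicate, and those at -2302 and 9214 bp did so in replicate 2 only. Of the 8 peaks, 1 was among the 1285 highest scores of the IDR list. The locus thus stands out by the number of its peaks and not by their scores. Per length lin-14 held 2.39 IDR summits per 10 kb, fewer than the 4.17 of the short lin-28 locus, which had 2 summits.

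Sequences around 4 of these summits are given to show the range of composition within the locus: the upstream summit, the intron 1 summit and the 2 highest of intron 3. Each is 101 bases of the plus strand of WBcel235 (ce11) from the RefSeq assembly, centred on the summit, with capitals marking a match on either strand to GAGAGA or to TTTATG, a hexamer bound by posterior Hox proteins.
lin-14 upstream summit, chrX:11464685-11464785: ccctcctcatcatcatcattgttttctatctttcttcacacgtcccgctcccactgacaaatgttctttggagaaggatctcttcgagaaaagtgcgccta
lin-14 intron 1 summit, chrX:11467321-11467421: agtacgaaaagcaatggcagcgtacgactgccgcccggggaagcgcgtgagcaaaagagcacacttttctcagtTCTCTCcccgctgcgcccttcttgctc
lin-14 intron 3 highest summit, chrX:11469723-11469823: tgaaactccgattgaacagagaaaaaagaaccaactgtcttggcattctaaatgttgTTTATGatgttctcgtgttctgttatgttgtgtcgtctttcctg
lin-14 intron 3 next summit, chrX:11472132-11472232: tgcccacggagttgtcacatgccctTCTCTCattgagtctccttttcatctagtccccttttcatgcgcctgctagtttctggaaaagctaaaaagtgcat

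The hbl-1 gene (WBGene00001824, X, 5822142 to 5827755, plus strand) encodes a zinc finger transcription factor of the Hunchback type that promotes fates of the second larval stage. It had the highest-scoring peak of the 10 loci, and all 3 of its IDR summits were far upstream. The peak at 5811897 to 5812260 scored 74.9 and ranked 166 of the 2570, with its summit at -10063 bp from the first hbl-1 start. A second peak, at 5812097 to 5812460, overlapped it and scored 37.0. Both met a single peak of each replicate, which scored 33.6 and ranked 172 in replicate 1, and scored 44.7 and ranked 197 in replicate 2. The higher peak thus had close ranks in all 3 lists.

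The third hbl-1 peak, at 5816360 to 5816723 and -5600 bp, scored 46.1, with 19.8 (rank 953) in replicate 1 and 27.4 (rank 1136) in replicate 2. No IDR summit lay in a promoter window of hbl-1 or in its gene body. Since its nearest IDR summit was at -5600 bp, hbl-1 had none with flanks of at most 2000 bp. The intergenic sequence belongs equally to F13D11.3 on the other side, and the far pair was nearer to the start of that gene, at 6157 and 6357 bp, than to hbl-1. All 3 summits lay inside annotated noncoding RNA genes of this interval, among them F13D11.22 and F13D11.9 on opposite strands at the highest summit. The share of all genes with 3 or more IDR summits in the locus was 0.946%. The median locus of all protein-coding genes was 4.78 kb, however, and that of hbl-1 was 23.5 kb.

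The windows at the highest hbl-1 summit and at the nearer region follow, the first of which holds the highest score of the 10 loci; capitals mark CAGCTG, an E-box, in the first and TTTATG on the minus strand in the second.
hbl-1 highest summit, chrX:5812029-5812129: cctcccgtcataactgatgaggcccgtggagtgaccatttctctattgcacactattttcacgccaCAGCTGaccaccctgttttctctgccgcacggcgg
hbl-1 nearer region, chrX:5816492-5816592: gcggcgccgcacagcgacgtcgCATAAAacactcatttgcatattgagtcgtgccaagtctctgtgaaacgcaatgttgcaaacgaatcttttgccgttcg

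The lin-28 gene (WBGene00003014, I, 8407630 to 8410804, minus strand) encodes an RNA-binding protein that blocks maturation of let-7. Its short locus of 4.79 kb held 2 IDR summits, and 3.25% of all genes had 2 or more. The peak at 8411095 to 8411458, with its summit at -473 bp from the first start, scored 42.7, and the peak at 8409858 to 8410221 scored 32.8 in intron 1, at -120 bp from the second start. The replicates ranked this pair in opposite order. The upstream peak scored 28.3 (rank 318) in replicate 1 and 14.1 (rank 4848) in replicate 2, while the intronic peak scored 12.3 (rank 2760) in replicate 1 and 27.6 (rank 1118) in replicate 2. The upstream summit lay in the sequence shared with F02E9.7, which is transcribed the other way.

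LIN-46, a gephyrin-like protein, acts downstream of LIN-28, and its gene (V, 12968855 to 12970730) had no IDR summit. The highest of its 2 weaker peaks scored 27.5 beyond the 3′ end, within a promoter window of the neighbour pnn-1. The peak at -217 bp from its start scored 19.7, with 13.3 (rank 2334) in replicate 1 and 7.92 (rank 12439) in replicate 2. That peak also lay in a promoter window of the neighbour R186.8. By the 2570 highest peaks of replicate 1 alone, lin-46 had a promoter peak, as 1 of 4 members beside 7.81% of all genes.

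DAF-12 is a nuclear hormone receptor that controls transcription of let-7 family genes according to steroid signals. In the 39.4 kb locus of daf-12 (X, 10635908 to 10666875) a single IDR peak scored 37.0, in intron 1 and 1845 bp from the first start. It scored 9.36 (rank 4521) in replicate 1 and 25.2 (rank 1430) in replicate 2. The locus held 31 weaker peaks, more than any other member, and its IDR density of 0.254 per 10 kb was below the 0.340 of X as a whole. The gene has 9 annotated starts, and no IDR summit lay in any of their promoter windows.

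LIN-42, the worm relative of Period proteins, acts in timing together with the molting cycle. The lin-42 gene (II, 1233236 to 1252359, minus strand) had 1 IDR peak, in intron 3, with a score of 38.7 and its summit 1346 bp from the nearest of 5 starts. Its replicate 2 score of 33.2 ranked 640, but its replicate 1 score of 9.04 ranked 4786. The replicates thus differed more over lin-42 than over lin-14 or hbl-1.

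Among the late regulators, neither lin-41 nor lin-29 had an IDR summit. LIN-41 is an RNA-binding TRIM-NHL protein and a let-7 target, and the highest peak of its locus (I, 9334800 to 9342496) scored 26.2 at -1330 bp, with 29.2 in replicate 2 and no overlapping peak in replicate 1. LIN-29 is the zinc finger factor that triggers adult epidermal fates, and the highest peak of its locus (II, 11917642 to 11935343) scored 21.9, at -9437 bp and nearer to W03C9.8. This peak scored 10.41 (rank 3732) in replicate 1 and 10.40 (rank 8090) in replicate 2. Although lin-29 has a locus of 31.1 kb, close in length to that of lin-14, none of its 11 pooled peaks came near the lowest IDR score of 30.8.

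The Argonaute genes alg-1 and alg-2, close relatives that both serve microRNAs, fell on opposite sides of the IDR threshold. At alg-1 (X, 13949110 to 13956261) an IDR peak at -733 bp scored 41.3, with 17.7 (rank 1286) in replicate 1 and 24.4 (rank 1532) in replicate 2. Its summit lay in sequence shared with the neighbour elt-3. At alg-2 (II, 873212 to 879885) the highest peak, 362 bp inside the gene, scored 28.9 and ranked 2918 of the pooled peaks, with 11.8 (rank 3011) in replicate 1 and 17.5 (rank 3196) in replicate 2. The alg-2 peak was the highest weaker peak among the 4 genes without a call.

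Windows for the single IDR summits of lin-42, daf-12 and alg-1 are shown for comparison with those of lin-14 and hbl-1; capitals mark GAGAGA, here on the minus strand, which occurs in the first only.
lin-42 summit, chrII:1242639-1242739: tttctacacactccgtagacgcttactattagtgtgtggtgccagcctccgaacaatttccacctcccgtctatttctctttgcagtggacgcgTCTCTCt
daf-12 summit, chrX:10637703-10637803: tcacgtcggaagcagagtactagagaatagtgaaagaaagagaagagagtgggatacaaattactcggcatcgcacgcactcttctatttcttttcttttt
alg-1 summit, chrX:13948327-13948427: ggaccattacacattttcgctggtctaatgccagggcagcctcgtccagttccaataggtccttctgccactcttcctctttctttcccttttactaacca

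In promoter windows, IDR summits were found for 3 of the 10 members, lin-28, alg-1 and lin-14, where 8.92% of all protein-coding genes had one. Every annotated start of a gene has a window. The members had from 1 start (lin-46) to 9 (daf-12), beside 29314 starts over all 19973 genes. They thus had more windows per gene. With a window of 500 bp upstream lin-28 alone remained, 1 of the 10 beside 7.11% of all genes, because the peaks of alg-1 and lin-14 lay at -733 and -825 bp. Of the 16 summits, 12 lay outside every promoter window, whereas over all IDR peaks 46.0% did, and 56.4% of those on X. Most of the 12 were at lin-14 and hbl-1, and they include both overlapping pairs. The members' loci were also long, with a median of 21.2 kb against 4.78 kb for all genes. The contrast was not adjusted for this. By position, 9 of the 16 were intronic, 7 were upstream, and 0 lay in exons or downstream of the gene. Annotated noncoding RNA genes contained 5 of the 16 summits, against 9.26% of all IDR summits; 3 of the 5 were the hbl-1 summits and 2 were at lin-14.

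Scores of the 16 peaks had a median of 38.7, a little under the 40.97 of all IDR peaks, and 5 of them were among the 1285 highest. Replicate support was uneven. Among the 2570 highest peaks of replicate 2, 15 of the 16 had an overlapping peak, but 11 had one in replicate 1, where the shares for all IDR peaks were 80.7% and 70.3%. In both replicates together 10 of the 16 did, against 53.3% of all IDR peaks, and these 10 belonged to lin-14, hbl-1 and alg-1. They include the overlapping pairs at lin-14 and hbl-1, and each pair met a single peak in each replicate. With support required in each replicate, 3 of the 10 genes were thus left, where 9.90% of all genes were. By the 2570 highest peaks of replicate 1 alone 5 members had a summit in the locus, beside 16.2% of all genes, and by those of replicate 2 alone 8 did, beside 16.8%. The additional members with replicate 2 alone were lin-41 and lin-46. With replicate 1 alone lin-46 was also added, while lin-42 and daf-12 were lost.

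**Figure D2:**
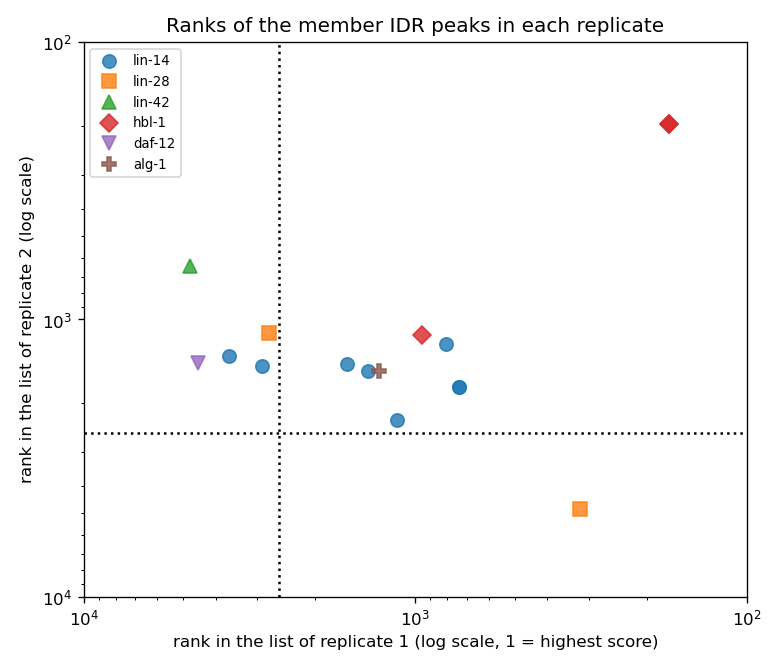
Rank of the overlapping peak in replicate 1 (horizontal) and replicate 2 (vertical) for the 16 IDR peaks, both on log axes with high scores to the right and top; dotted lines mark rank 2570, and overlapping peaks at lin-14 and at hbl-1 share a replicate peak and so fall on the same point. The hbl-1 pair ranked 172 and 197, while lin-42, daf-12, 1 of the lin-28 peaks and 2 of the lin-14 peaks lay beyond rank 2570 in replicate 1, and the other lin-28 peak did in replicate 2.

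**Figure D3:**
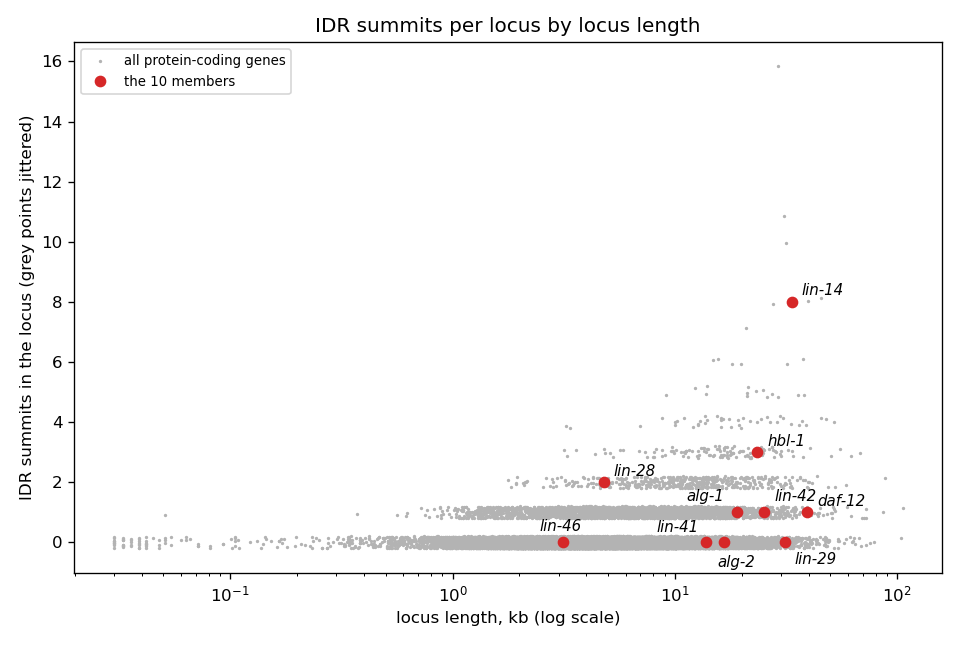
Number of IDR summits in the locus (vertical) by locus length in kb (horizontal, log scale) for the 10 members in red and all 19973 protein-coding genes in grey, with grey points jittered vertically. The 8 summits of lin-14 are matched or exceeded by few loci, while lin-29 and daf-12 have long loci with 0 and 1.

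Motifs were searched within 50 bp of each summit on both strands. GAGAGA was found at 5 of the 16 summits, beside 26.8% of all IDR summits, at lin-14, lin-28, lin-42 and hbl-1. The hexamer TTTATG was found at 3, beside 11.3% of all, at -2302 and 4213 bp of lin-14 and at -5600 bp of hbl-1. CAGCTG was found at 2, beside 4.75% of all, at the highest hbl-1 summit and in intron 1 of lin-28. TTTACG, a variant of the posterior Hox hexamer, was found at 0 of the 16, beside 5.99% of all, and TGATTGAT, a composite site of Hox and Pbx-type proteins, also at 0, beside 1.13%. The share of G and C in the 101-base windows ran from 37.6% to 60.4%, with a median of 46.0% for the members and 45.5% for all IDR summits. These counts over 16 summits were not tested.

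A further 28 genes of developmental timing were examined by the same locus rule, 22 protein-coding genes, 5 microRNA genes and the noncoding RNA gene lep-5. An IDR summit was present for 12 of the 22 protein-coding genes, beside the 16.9% of all protein-coding genes. Several of the 22 loci exceed 10 kb, such as sea-2 with 36.2 kb and din-1 with 32.4 kb. Among all loci of 10 kb or more the share was 32.2%. Of the 22 genes, 6 had a summit in a promoter window, beside 8.92% of all genes. The list was chosen with earlier results of these data known. The highest score was that of puf-9, a Pumilio-type RNA-binding protein gene, with 95.7 at -303 bp, rank 20 in replicate 1 and rank 327 in replicate 2. Next came nhl-2, which encodes a TRIM-NHL cofactor of the microRNA machinery (76.7, in a window shared with tag-340), and myrf-1, a membrane-bound transcription factor gene that acts in molting (61.1). Further promoter peaks lay at ain-1 (45.6), a GW182-type partner of Argonaute, din-1 (43.6), a corepressor of DAF-12, and lin-66 (37.8). Their ranks in replicate 1 were lower than in replicate 2, at 2881 and 379 for ain-1, 9365 and 414 for din-1, and 3515 and 1020 for lin-66.

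Without a summit in a promoter window of their own, sea-2 had 4 IDR summits with a highest score of 50.7, and ain-2, kin-20, nhr-25, nhr-85 and dre-1 had 1 each. The scores of these 1-summit genes ran from 31.4 for dre-1 to 38.3 for ain-2. The nhr-85 peak, at -3841 bp, lay in a promoter window of the neighbour hpo-2, and the kin-20 peak in sequence shared with jud-4. The peaks of dre-1 and nhr-85 ranked 813 and 801 in replicate 1 but 9109 and 7632 in replicate 2, and that of nhr-25 ranked 5166 in replicate 1 and 1391 in replicate 2. Among the microRNA genes, let-7 had an IDR summit at -1810 bp from the annotated 5′ end of its primary transcript, with a score of 60.2, rank 955 in replicate 1 and rank 277 in replicate 2. Its family members mir-48 and mir-241 share a locus and a single peak with a score of 43.1, and mir-84 had a peak scoring 34.0. The lin-4 gene lies within a protein-coding gene, so its locus was only 94 bp under this rule and held no summit. The remaining 11 genes without an IDR summit were protein-coding or lep-5, among them dcr-1, drsh-1 and pash-1 of microRNA processing.

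**Figure D4:**
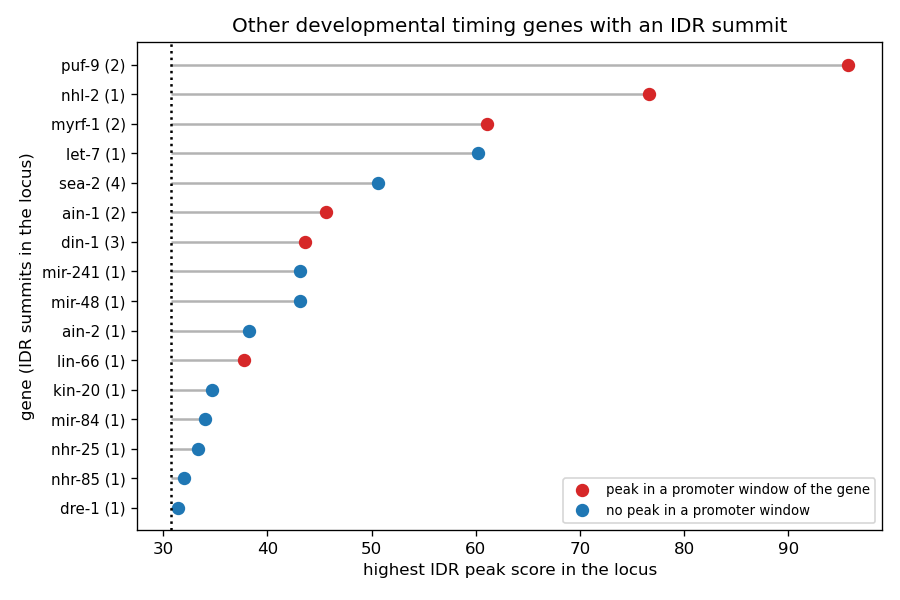
Highest IDR score in the locus (horizontal, the authors' scale) of the 16 further timing genes with an IDR summit, with the number of summits in parentheses; red marks genes with a summit in a promoter window, which were defined for protein-coding genes only, and the dotted line is the lowest IDR score. The scores run from 31.4 at dre-1 to 95.7 at puf-9.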

How the data were processed

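ChIP-seq peaks of eGFP-tagged EGL-5 in whole L3 larvae were analysed, with 2 biological replicates in 1 group. The authors deposited narrowPeak lists per replicate, for both replicates pooled, and after IDR thresholding; the replicate and pooled lists are peaks and background used as IDR input, per the deposited notes. The deposited lists give a score per peak, on the caller's own scale, a −log10 q-value per peak and a summit offset. The score was used only within its list. The −log10 q-value was not used for ranking. The IDR cut-off, aligner and peak caller were not given in the sources used here. Only ce11 lists were used for positions; at equal rank, replicate 1 scores on ce11 differed by a median of 64.7% from replicate 1 on ce10 and by 0.219% from replicate 2, and replicate 2 scores by 39.3% and 0.340% from replicates 2 and 1.

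Genes were those of Ensembl release 115 for WBcel235, the ce11 assembly (let-7 from RefSeq), and sequences came from RefSeq; no ce11 peak ended beyond a chromosome. A locus ran to the nearest protein-coding gene on each side, so intergenic summits count for both neighbours. A replicate value is the highest-scoring replicate peak that overlaps by at least 1 bp. Python 3.11.15, pandas 2.3.3 and NumPy 2.4.6 were used, and locus and overlap counting was tested on simulated data. No test was run: there is 1 group, and all counts are descriptions beside the same count over all genes or peaks. All members are named, and of the further list those with an IDR summit, with dcr-1, drsh-1, pash-1, lin-4 and lep-5 added after seeing the values. Members and lists were chosen with earlier results of these data known. Alternatives were each replicate alone, stricter lists, other locus bounds, other promoter windows and other motif windows.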

Additional observations from a re-analysis of the deposited data

How the results depend on the processing

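Across the alternatives run, lin-14 and hbl-1 kept an IDR summit in the locus except that hbl-1 lost its summits with flanks of at most 2000 bp, with loci bounded by genes of any biotype and with the gene body only. With a replicate left out, between 5 and 8 members had a summit in the locus, 12 to 19 summits lay in the 10 loci, and 3 to 4 members had one in a promoter window. Scores of single replicates are on other scales, so no highest score is given there. Among the 1285 highest IDR peaks 5 summits were left in the loci. With support in each replicate, 3 members and 10 summits were left, and 8 summits where at least 50% of the peak had to be overlapped. The gene body alone held 9 summits. The highest score in the loci was 51.2, at lin-14 in place of hbl-1, with flanks of at most 2000 bp, with loci bounded by any biotype, with the gene body only and with nearest starts. With 500 bp upstream 1 member had a promoter summit. Within 25 bp of the summit the motif counts were 3 for GAGAGA and 1 each for CAGCTG and TTTATG, and within 100 bp TTTACG was found at 1 summit. The stricter lists hold fewer peaks and the window alternatives change the length searched; for the lists of a single replicate the cause was not tested. Counts per member stayed within 1.5 times their value in 64 of 90 cases and moved in 26, mostly genes with 1 or 2 summits. Many of the unchanged cases were lin-41, lin-29, lin-46 and alg-2 without a summit in either setting, where such a ratio says nothing about stability. Unknown depth limits what the absence of a peak can show.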

Other observations

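The 7 loci with 8 or more IDR summits were those of egl-5 with 16, its neighbour cyk-7 with 11, egl-27 with 10, and lin-14, F57G12.1, cab-1 and snt-1 with 8 each. On X are 3 of them, lin-14, F57G12.1 and cab-1. Neighbouring loci share their intergenic summits, so these counts overlap between adjacent genes. These genes were named after their values were seen. The strain carries added egl-5 sequence, and whether this bears on the counts of egl-5 and cyk-7 was not tested.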
